A study of Mus musculus with 965 samples.

Results

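Wnt signalling was followed through 9 genes, chosen by name from the gene table as 3 ligands (Wnt3, Wnt3a and Wnt8a), 3 genes used as readouts of the pathway (Axin2, Lef1 and Sp5) and 3 secreted antagonists (Dkk1, Sfrp1 and Sfrp2). They were 9 of 36849 genes in the table, and all 9 had reads and passed the filter on low counts. The measurements came from 965 single cells of embryoid bodies, floating aggregates that mouse embryonic stem cells (ESCs) form after withdrawal of LIF. Cells were sorted into plates and sequenced by Smart-seq2, which reads full-length polyadenylated RNA. The ESCs were of the E14 line, and 3BKO denotes Dnmt3b -/- cells (clones 3B126 and 3B77, 372 cells), 3AKO denotes Dnmt3a -/- cells (clones 3A2 and 3A38, 363 cells) and WT the wild-type line (230 cells). Cells were taken at day 3 (365 cells), day 6 (348 cells) and day 8 (252 cells) of differentiation, and clone 3A2 was not sampled at day 8. The clone was the replicate, each knockout being represented by 2 clones and WT by 1 line. The labels placed all 3AKO cells in batch 1, WT and 3B126 in batch 2 and 3B77 in batch 3, so that only 3B126 and WT can be compared within a batch, and elsewhere genotype and batch cannot be told apart. Every plate held a single clone and day, so within batch 2 plate and clone cannot be told apart either.

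The genes lay at the following positions (GRCm38, GENCODE annotation). Wnt3 spanned chr11:103774150-103817957 (+ strand), Wnt3a chr11:59248033-59290752 (- strand) and Wnt8a chr18:34542313-34548273 (+ strand). Axin2 spanned chr11:108920349-108950783 (+ strand), Lef1 chr3:131110471-131224356 (+ strand) and Sp5 chr2:70474923-70477729 (+ strand). Dkk1 spanned chr19:30545863-30549665 (- strand), Sfrp1 chr8:23411502-23449632 (+ strand) and Sfrp2 chr3:83766321-83774316 (+ strand). Axin2, Lef1 and Sfrp2 each have an antisense gene on the opposite strand that touches an exon, and the library kit does not mark the strand, so reads from those overlaps cannot be told apart.

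In the canonical pathway a Wnt protein binds a Frizzled receptor and an Lrp co-receptor, which stabilises beta-catenin and lets it activate genes together with DNA-binding proteins of the Tcf/Lef family. In the early mouse embryo Wnt3 is needed for the primitive streak, the site where mesoderm and endoderm arise, and Wnt3a acts slightly later in the streak, the tail bud and the dorsal neural tube. Axin2 is a negative feedback component of the beta-catenin destruction complex that is itself switched on by the pathway. Dkk1 blocks the Lrp co-receptors, and the secreted frizzled-related proteins Sfrp1 and Sfrp2 bind Wnt ligands outside the cell.

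The promoters of Sp5, Dkk1 and Wnt3 are shown because they held the letters recognised by Tcf/Lef factors, the route by which a Wnt signal reaches its targets. Each sequence is written 5′ to 3′ along the gene from 250 bases before the RefSeq start to 50 bases after it (GRCm38.p6), and capitals mark CTTTG followed by 2 letters that are each A or T (4 spellings), on either strand.
Sp5 (chr2:70474673-70474972, + strand): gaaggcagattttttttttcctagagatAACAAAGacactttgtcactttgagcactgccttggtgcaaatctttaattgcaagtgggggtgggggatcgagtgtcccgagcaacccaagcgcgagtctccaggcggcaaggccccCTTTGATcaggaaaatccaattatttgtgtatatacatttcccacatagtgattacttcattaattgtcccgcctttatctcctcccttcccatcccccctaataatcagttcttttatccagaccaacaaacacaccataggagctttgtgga
Dkk1 (chr19:30549447-30549746, - strand): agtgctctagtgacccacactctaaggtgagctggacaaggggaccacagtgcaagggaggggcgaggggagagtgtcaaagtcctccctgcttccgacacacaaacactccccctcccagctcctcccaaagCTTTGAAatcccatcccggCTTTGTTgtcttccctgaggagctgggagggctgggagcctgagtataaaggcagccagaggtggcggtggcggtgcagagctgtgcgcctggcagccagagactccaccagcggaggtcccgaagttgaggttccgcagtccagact
Wnt3 (chr11:103773925-103774224, + strand): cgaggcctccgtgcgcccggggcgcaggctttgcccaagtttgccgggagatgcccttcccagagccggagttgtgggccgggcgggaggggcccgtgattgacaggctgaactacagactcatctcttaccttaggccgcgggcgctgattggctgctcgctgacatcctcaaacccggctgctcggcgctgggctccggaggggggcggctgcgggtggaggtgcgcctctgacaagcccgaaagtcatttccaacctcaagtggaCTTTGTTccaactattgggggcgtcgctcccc
Sp5 had 2 matches, which began 222 and 104 bases before the start, Dkk1 had 2, which began 117 and 98 bases before the start, and Wnt3 had 1, which began 18 bases after it. A position can match only 1 of the 4 spellings. Of all 32851 RefSeq promoter windows of the same 300 bases, 5544 (16.9%) held at least 1 match. The search covered 10 windows of 7 members, without Wnt8a and Sfrp1. Of these members 4 held a match, each in 1 window, the fourth being Lef1 at 1 of its 4 starts. The windows of Wnt3a, Axin2 and Sfrp2 had none. A match describes the letters in the window and is not a binding site.

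Libraries held between 9810248 and 44529830 gene reads per clone and day (50096 to 3442378 per cell), and the median number of genes per cell ran between 3647 and 7203. The targeted genes were lower in their knockouts at day 3. Plain CPM of Dnmt3b was 17.8 and 35.3 in 3BKO clones at day 3, against 239 in WT, and Dnmt3a was 24.1 and 12.99 in 3AKO clones, against 118 in WT. At day 6 Dnmt3b was 37.3 and 13.4 plain CPM in 3BKO, against 69.7 in WT. At day 8 Dnmt3b was low everywhere (4.24 and 5.504 plain CPM in 3BKO, against 6.36 and 3.22 on the 2 WT plates) and does not check the labels there. A library and a plate of day 8 went against their labels. Cells with at least 3 reads of Y-linked genes were 11 of 40 in the library labelled 3B77 day 8, against 0 of 79 at day 3 and 0 of 71 at day 6 in that clone. On the larger WT plate of day 8, plate C344, they were 0 of 68, against 23 of 74 and 36 of 67 WT cells at days 3 and 6. The fitted differences between days 8 and 3 are also given with this doubted pair removed, which leaves WT at day 8 with the 21 cells of plate C343, where 7 of 9 members (all but Lef1 and Sfrp1) had 0 reads. For those 7 members the sizes with the pair removed depend on the prior count of the model. Blood markers were high in the library labelled 3B77 day 8, on the smaller WT plate of day 8, plate C343, and in 3A38 at day 6 (28170.0, 34950.0 and 20660.0 plain CPM summed over 6 markers, against 715 on C344), and the part of these cells in the results was not tested.

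Unless stated otherwise, levels are CPM, the reads of a gene in all cells of a clone and day added together, scaled to a common library total by edgeR's TMM factors. A library at 0 allows a level of up to 0.0718 to 0.258 CPM, depending on its depth (3 reads). This bound covers counting error of reads only, and which cells were sampled can matter more. In 3B126 at day 3, 1 cell held all 12 Dkk1 reads, which gave 0.674 CPM. Per base of exon, averaged over the 14 libraries, Sfrp2 had 25.3 and Sfrp1 18.6 CPM per kb of exon, the highest of the members. Dkk1 had 3.605 and Lef1 2.55 CPM per kb. These means lean on single libraries, as Dkk1 had 2.598 CPM per kb without WT at day 8 and Lef1 0.943 CPM per kb without 3A38 at day 8. The other 5 members had between 0.219 (Wnt3a) and 0.863 (Wnt8a) CPM per kb. Apart from Lef1, Sfrp1 and Sfrp2, each member was read in few cells, between 4.25% (Wnt3a) and 16.4% (Axin2) of all 965, and its reads often came from very few of them. The single highest cell supplied more than 50% of the reads of Dkk1 in 7 of 11 libraries with reads, of Wnt3 in 6 of 12 and of Sfrp2 in 0 of 13. In summed libraries, fewer cells with a transcript and less transcript per cell cannot be told apart, so shares of cells are given beside the levels.

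The first question was how the ligands behaved as the embryoid bodies differentiated. Wnt3, the streak-inducing ligand, had 0 and 0.298 CPM in 3B126 and 3B77 (3BKO), 0.981 and 2.003 CPM in 3A2 and 3A38 (3AKO) and 3.24 CPM in WT cells at day 3. At day 6 it had 0.189 and 3.89 CPM in 3B126 and 3B77 (3BKO), 1.49 and 5.51 CPM in 3A2 and 3A38 (3AKO) and 4.18 CPM in WT cells. The day 8 values were 2.15 and 0 CPM in 3B126 and 3B77 (3BKO), 4.03 CPM in 3A38 (3AKO) and 2.91 CPM in WT cells. Every clone was higher at day 6 than at day 3, although the ranges of the days overlapped. Reads were found in 4 of 58 3B126, 17 of 71 3B77, 7 of 80 3A2, 9 of 72 3A38 and 12 of 67 WT cells at day 6, against 0 of 73 3B126, 1 of 79 3B77, 5 of 69 3A2, 13 of 70 3A38 and 8 of 74 WT cells at day 3. Averaged over genotypes, the difference between day 6 and day 3 did not pass the test across all genes (log2 fold change 1.75 ± 1.38 (SE), adjusted p = 0.726), nor did that between day 8 and day 3 (log2 fold change 1.34 ± 1.41 (SE), adjusted p = 0.8096), whose sign turned without 3B126 (-1.59) and with the doubted pair removed (-1.40).

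Wnt3a, which acts in the later streak and the dorsal neural tube, was close to absent at day 3, with 0 and 0 CPM in 3B126 and 3B77 (3BKO), 0 and 0.0274 CPM in 3A2 and 3A38 (3AKO) and 0.0499 CPM in WT cells, with reads in 2 of 365 cells. Its day 6 values were 0.717 and 0.537 CPM in 3B126 and 3B77 (3BKO), 0.354 and 2.73 CPM in 3A2 and 3A38 (3AKO) and 0.836 CPM in WT cells. Every library of day 6 lay above every library of day 3, although in 3 of 5 libraries of day 6 (3B126, 3A2 and WT) all Wnt3a reads came from 1 cell, without which they stood at 0. At day 8 the levels were 1.64 and 0 CPM in 3B126 and 3B77 (3BKO), 0.166 CPM in 3A38 (3AKO) and 1.41 CPM in WT cells. Cells with a read numbered 1 of 58 3B126, 6 of 71 3B77, 1 of 80 3A2, 14 of 72 3A38 and 1 of 67 WT cells at day 6, so that clone 3A38 held 14 of the 23. The fitted difference missed the threshold at day 6 (log2 fold change 5.78 ± 2.04 (SE), adjusted p = 0.2999) and at day 8 (log2 fold change 5.099 ± 1.98 (SE), adjusted p = 0.213), and with 3 of 5 clones at 0 at day 3 its size depends on the prior count of the model.

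Wnt8a, a ligand of the early streak, showed no common course. Its levels at day 3 were 0.112 and 0 CPM in 3B126 and 3B77 (3BKO), 1.76 and 0.521 CPM in 3A2 and 3A38 (3AKO) and 5.94 CPM in WT cells. At day 6 they were 2.11 and 4.63 CPM in 3B126 and 3B77 (3BKO), 1.24 and 0 CPM in 3A2 and 3A38 (3AKO) and 3.39 CPM in WT cells. The day 8 values were 1.35 and 0 CPM in 3B126 and 3B77 (3BKO), 0 CPM in 3A38 (3AKO) and 0.0455 CPM in WT cells. Both 3BKO clones were higher at day 6 than at day 3, whereas both 3AKO clones and WT were lower. Cells with a read numbered 6 of 58 3B126, 16 of 71 3B77, 2 of 80 3A2, 0 of 72 3A38 and 13 of 67 WT cells at day 6, against 1 of 73 3B126, 0 of 79 3B77, 12 of 69 3A2, 3 of 70 3A38 and 10 of 74 WT cells at day 3. Neither day passed the test against day 3. The only 3AKO library of day 8 was at 0, so the fitted size at day 8 depends on the prior count of the model. The day 6 difference was small against its error (log2 fold change 1.41 ± 1.51 (SE), adjusted p = 0.882), and that of day 8 was negative (log2 fold change -3.72 ± 1.99 (SE), adjusted p = 0.3803).

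**Figure D1:**
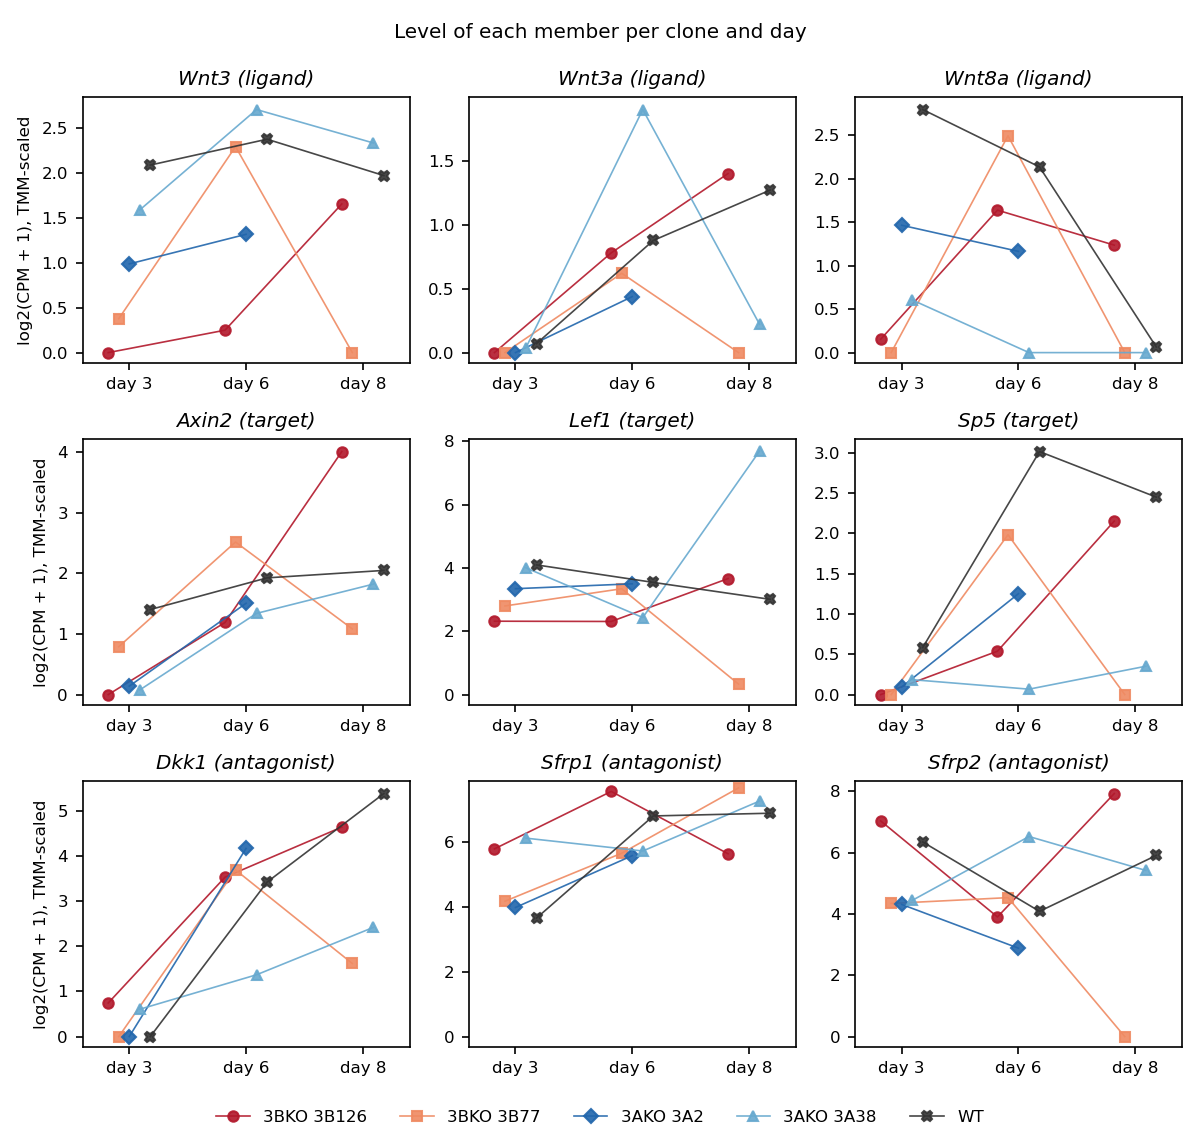
Level of each of the 9 members (y axis, log2 of TMM-scaled CPM + 1, a separate scale per panel) against the day of differentiation (x axis), each line being a clone. Dkk1 and Wnt3a have every clone higher at day 6 than any clone at day 3, and the point of Lef1 in clone 3A38 at day 8 (206 CPM before the log) stands apart.

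A pattern noticed in the values was that ligand reads at day 3 were nearly missing from 3BKO cells. A read of at least 1 of the 3 ligands was found in 1 of 73 3B126 cells (1.37%) and 1 of 79 3B77 cells (1.27%), against 15 of 69 3A2 cells (21.7%), 15 of 70 3A38 cells (21.4%) and 13 of 74 WT cells (17.6%). Both 3BKO clones lay below the other 3 clones, and the means were 1.32% and 20.2%. An exact two-sided permutation test of 2 clones against 3 gave p = 0.2, the smallest that this design allows, and the comparison was chosen after the values were seen. With every cell reduced to 50000 reads the means were 0.572% in 3BKO and 12.3% in the other clones, in the same order. Clone 3B126 had few genes per cell at day 3 (median 3713) but 3B77 had 6907, against 6946, 6914 and 5096 in 3A2, 3A38 and WT. By day 6 the shares were 18.97% and 43.7% in 3BKO clones 3B126 and 3B77, 11.2% and 25% in 3AKO clones 3A2 and 3A38 and 35.8% in WT, and the groups overlapped.

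**Figure D2:**
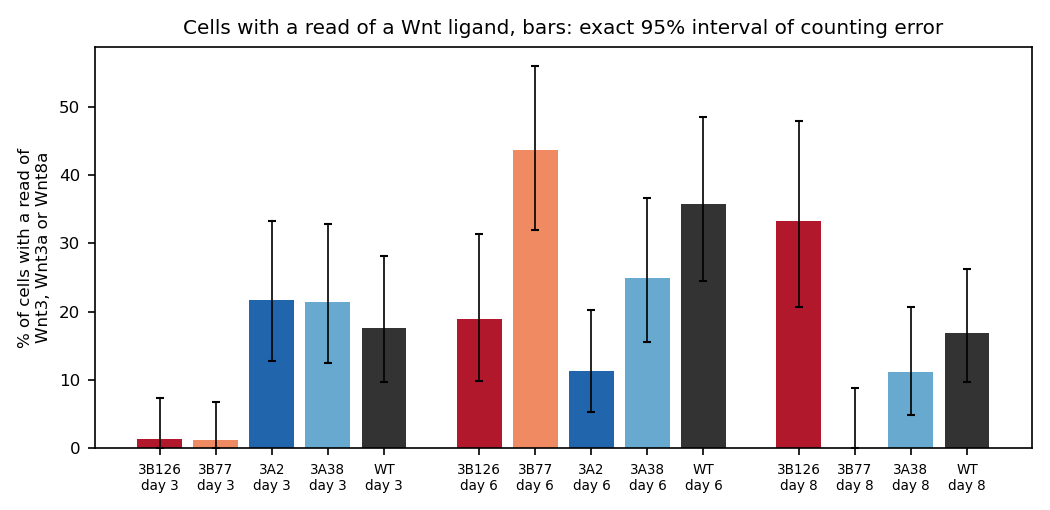
Percent of cells with a read of Wnt3, Wnt3a or Wnt8a (y axis) for the 5 clones at each day (x axis), with exact 95% intervals of counting error. At day 3 the 3BKO clones stand at 1.37% and 1.27% and the other clones between 17.6% and 21.7%, and no such order is seen at day 6.

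The same order was seen in the levels of several members, of which Wnt3 and Wnt8a rest on the ligand reads already counted above. At day 3 both 3BKO clones lay below the other 3 clones for 4 of 9 members (Wnt3, Wnt8a, Lef1 and Sp5), where 5.89% of all genes tested did so. The order is not shown for Sp5, whose levels in 3AKO clones 3A2 and 3A38 (0.0676 and 0.137 CPM) lay below what the 3B126 library at 0 allows (0.169 CPM). Against WT alone, the unadjusted edgeR p was below 0.05 for 1 of 9 members, Wnt8a (-6.74 ± 3.01 on the log2 scale), and no gene of 24083 passed edgeR's adjusted p (0%), although 753 (3.13%) had an unadjusted p below 0.05. The DESeq2 Wald test called 224 of the 35661 genes with a read and 0 of 9 members. Within batch 2, where 3B126 and WT still lay on separate plates, Wnt3 had 0 CPM in 3B126 and 3.24 CPM in WT at day 3. In that WT library 1 cell held 61.5% of the Wnt3 reads, and the plain level was 2.32 CPM with the cell and 0.895 CPM without it. Wnt8a had 0.112 CPM in 3B126 and 5.94 CPM in WT.

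The ligand-positive cells of day 3 were partly the cells that had begun to express T, the T-box factor that marks the primitive streak. All 10 cells of day 3 with a read of T had a read of at least 1 ligand, and 9 of them had Wnt3, where the shares of both genes within each clone would give 1.36 such cells. Of these 10 cells, 5 were WT, 4 were 3A38, 1 was 3A2 and none was 3BKO (0 of 73 3B126 and 0 of 79 3B77 cells). Their median depth was 251312 reads, against 254791 reads for the other cells of day 3. Wnt8a was read in 7 of the 10, and Wnt3 and Wnt8a were read together in 9 cells, where 2.51 would follow from their shares. At day 6, 18 of 30 T-positive cells had a ligand read, and at day 8 the number was 7 of 25. These are descriptions without a test, since cells of a clone are not replicates.

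The second question was whether genes that report the pathway followed. Axin2, the feedback inhibitor, had 0 and 0.729 CPM in 3B126 and 3B77 (3BKO), 0.101 and 0.0549 CPM in 3A2 and 3A38 (3AKO) and 1.65 CPM in WT cells at day 3. Levels of Axin2 at day 6 were 1.28 and 4.73 CPM in 3B126 and 3B77 (3BKO), 1.84 and 1.53 CPM in 3A2 and 3A38 (3AKO) and 2.802 CPM in WT cells. It was higher at day 6 in 5 of 5 clones. At day 8 it had 15.1 and 1.12 CPM in 3B126 and 3B77 (3BKO), 2.54 CPM in 3A38 (3AKO) and 3.14 CPM in WT cells. Clone 3B126 stood highest at day 8, and its highest cell supplied 34.7% of the reads. Cells with a read numbered 7 of 58 3B126, 28 of 71 3B77, 14 of 80 3A2, 17 of 72 3A38 and 16 of 67 WT cells at day 6, against 0 of 73 3B126, 5 of 79 3B77, 3 of 69 3A2, 1 of 70 3A38 and 8 of 74 WT cells at day 3. The fitted differences did not pass (day 6, log2 fold change 2.71 ± 1.28 (SE), adjusted p = 0.433; day 8, log2 fold change 3.44 ± 1.37 (SE), adjusted p = 0.222).

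Sp5 is a zinc finger repressor of the Sp family whose gene is a direct target of beta-catenin. It had 0 and 0 CPM in 3B126 and 3B77 (3BKO), 0.0676 and 0.137 CPM in 3A2 and 3A38 (3AKO) and 0.499 CPM in WT cells at day 3. The levels at day 6 were 0.453 and 2.95 CPM in 3B126 and 3B77 (3BKO), 1.38 and 0.0479 CPM in 3A2 and 3A38 (3AKO) and 7.08 CPM in WT cells. All clones but 3A38 were higher at day 6. At day 8 its levels were 3.44 and 0 CPM in 3B126 and 3B77 (3BKO), 0.276 CPM in 3A38 (3AKO) and 4.46 CPM in WT cells. At day 6 it was read in 4 of 58 3B126, 16 of 71 3B77, 12 of 80 3A2, 1 of 72 3A38 and 11 of 67 WT cells. The test gave a log2 fold change 5.01 ± 1.87 (SE), adjusted p = 0.322, for day 6, and a log2 fold change 4.35 ± 1.82 (SE), adjusted p = 0.249, for day 8, both short of the threshold. Both 3BKO clones were at 0 at day 3, where the fitted size again depends on the prior count.

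Lef1 encodes a DNA-binding partner of beta-catenin and is itself raised by the pathway in many tissues. It was read far more widely, in 10 of 73 3B126, 40 of 79 3B77, 37 of 69 3A2, 46 of 70 3A38 and 32 of 74 WT cells at day 3. Its levels were 3.99 and 5.97 CPM in 3B126 and 3B77 (3BKO), 9.17 and 15.03 CPM in 3A2 and 3A38 (3AKO) and 16.1 CPM in WT cells at day 3. At day 6 they were 3.96 and 9.16 CPM in 3B126 and 3B77 (3BKO), 10.3 and 4.41 CPM in 3A2 and 3A38 (3AKO) and 10.7 CPM in WT cells, without a common direction (2 of 5 clones higher). At day 8 they were 11.7 and 0.258 CPM in 3B126 and 3B77 (3BKO), 206 CPM in 3A38 (3AKO) and 7.05 CPM in WT cells. The high value of 3A38 rested mostly on 1 cell with 3056 CPM, which held 76.4% of the reads. The plain level of that library was 168 CPM with the cell and 41.2 CPM without it, against at most 14.4 plain CPM in the other libraries of day 8. Neither day passed the test against day 3 (day 6, log2 fold change -0.31 ± 0.75 (SE), adjusted p = 1; day 8, log2 fold change 1.06 ± 0.796 (SE), adjusted p = 0.609), and the sign at day 8 turned without 3A38 (-0.51) or without 3B126 (-0.54). The share of cells with a Lef1 read was 31.9 to 52.1% over the clones at day 6.

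The third question concerned the antagonists. Dkk1 was read in only 3 of 365 cells at day 3 and had 0.674 and 0 CPM in 3B126 and 3B77 (3BKO), 0 and 0.521 CPM in 3A2 and 3A38 (3AKO) and 0 CPM in WT cells. At day 6 it had 10.5 and 11.9 CPM in 3B126 and 3B77 (3BKO), 16.9 and 1.58 CPM in 3A2 and 3A38 (3AKO) and 9.68 CPM in WT cells. By day 8 it had 23.8 and 2.07 CPM in 3B126 and 3B77 (3BKO), 4.33 CPM in 3A38 (3AKO) and 40.5 CPM in WT cells. All libraries of days 6 and 8 lay above all libraries of day 3, a separation that Dkk1 and Wnt3a showed between days 6 and 3 (2 of 9 members, 1.48% of all genes tested) and Dkk1 alone among the members between days 8 and 3 (3.08% of all genes). The separation of Wnt3a was lost without the highest cell of each library, and that of Dkk1 at day 8 was lost with the doubted pair removed. It was read in 6 of 58 3B126, 14 of 71 3B77, 5 of 80 3A2, 7 of 72 3A38 and 10 of 67 WT cells at day 6. The fitted differences did not pass with all clones (day 6, log2 fold change 7.06 ± 1.87 (SE), adjusted p = 0.202; day 8, log2 fold change 7.46 ± 1.92 (SE), adjusted p = 0.0859). With 3 of 5 clones at 0 at day 3 their size depends on the prior count, and at day 6 it ran between 5.09 and 9.18 on the log2 scale with a clone left out. At day 8 the difference ran between 4.65 and 9.04 on the log2 scale with a clone left out. Dkk1 passed the threshold at both days without clone 3A2 and without clone 3A38, fits that leave a single 3AKO clone. It passed at neither day without 3B126, without 3B77 or without WT. With the doubted pair removed, the day 8 difference was 3.397 on the log2 scale, with an adjusted p of 1.

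Sfrp1 was among the most abundant members, with 54.5 and 17.1 CPM in 3B126 and 3B77 (3BKO), 14.8 and 68.8 CPM in 3A2 and 3A38 (3AKO) and 11.6 CPM in WT cells at day 3. On day 6 it reached 189 and 49.6 CPM in 3B126 and 3B77 (3BKO), 47.03 and 52.01 CPM in 3A2 and 3A38 (3AKO) and 111 CPM in WT cells. At day 8 the clones had 49 and 204 CPM in 3B126 and 3B77 (3BKO), 153 CPM in 3A38 (3AKO) and 118 CPM in WT cells. It was higher at day 6 in 4 of 5 clones, and lower in 3A38. Neither day passed the test (day 6, log2 fold change 1.75 ± 0.65 (SE), adjusted p = 0.319; day 8, log2 fold change 2.35 ± 0.69 (SE), adjusted p = 0.107). The 2 WT plates of day 8 were far apart, with 428 plain CPM on C343 and 20.2 plain CPM on C344.

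Sfrp2 was the member read in most cells, 57.9% of all 965, and pooling the clones gave 75.1% of them on day 3, 54.6% on day 6 and 37.7% on day 8. Its summed levels did not follow the share. They were 130.1 and 19.3 CPM in 3B126 and 3B77 (3BKO), 18.8 and 20.7 CPM in 3A2 and 3A38 (3AKO) and 80.4 CPM in WT cells at day 3. At day 6 they were 13.95 and 22.1 CPM in 3B126 and 3B77 (3BKO), 6.38 and 91.1 CPM in 3A2 and 3A38 (3AKO) and 15.98 CPM in WT cells. The day 8 values were 242 and 0 CPM in 3B126 and 3B77 (3BKO), 41.8 CPM in 3A38 (3AKO) and 59.1 CPM in WT cells. The days overlapped widely (day 6, log2 fold change -1.03 ± 1.59 (SE), adjusted p = 1; day 8, log2 fold change 0.44 ± 1.65 (SE), adjusted p = 1), and at day 8 the sign turned negative (-3.73) with the doubted pair removed.

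Over the list, 7 of 9 members had a positive fitted difference between day 6 and day 3 (median 1.75 on the log2 scale). Of all 24083 genes tested, 54.6% were positive and the median was 0.11. By edgeR's adjusted p, 0 of 9 members passed, against 0.0374% of all genes (9 genes). The unadjusted p was below 0.05 for 4 members, against 2786 of all genes (11.6%). The DESeq2 Wald test, run without the filter on low counts, called 3 (Wnt3a, Sp5 and Dkk1), against 1500 of the 35661 genes with a read. Between day 8 and day 3, 8 of 9 members were positive, against 48.4% of all genes (median 2.35, all genes -0.01). For this contrast edgeR called 0, against 0.822% of all genes (198 genes). There 5 members had an unadjusted p below 0.05, against 3925 of all genes (16.3%). DESeq2 called 5 (Wnt3a, Axin2, Sp5, Dkk1 and Sfrp1), against 2876 of the 35661 genes with a read. With the doubted pair removed, edgeR still called 0 members, against 796 genes, 6 of 9 were positive and the median was 1.02. The log2 differences were then 2.69 for Wnt3a, -4.504 for Wnt8a, 0.63 for Axin2, 1.397 for Sp5, 1.02 for Lef1 and 2.52 for Sfrp1 (adjusted p between 0.0527 and 1). By direction alone, 4 of 9 members (Wnt3, Wnt3a, Axin2 and Dkk1) were higher at day 6 in 5 of 5 clones, where 5.34% of all genes tested were, and 0 were lower in 5 of 5 (4.46% of all genes). At the level of cells reduced to 50000 reads, Dkk1 was read in 9.32% of cells at day 6 and 0.551% at day 3, Axin2 in 10.2% and 2.23% and Wnt3a in 3.89% and 0.296%, as means over 5 clones. These 3 shares were higher at day 6 in 5 of 5 clones (exact sign-flip permutation test, two-sided p = 0.0625 each, the smallest that 5 clones allow; 9 members tested). How many of all genes had a higher share of cells in 5 of 5 clones was not computed. The share of Sfrp2 was 36.6% at day 6 and 54.9% at day 3, lower in 4 of 5 clones (exact permutation p = 0.125).

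**Figure D3:**
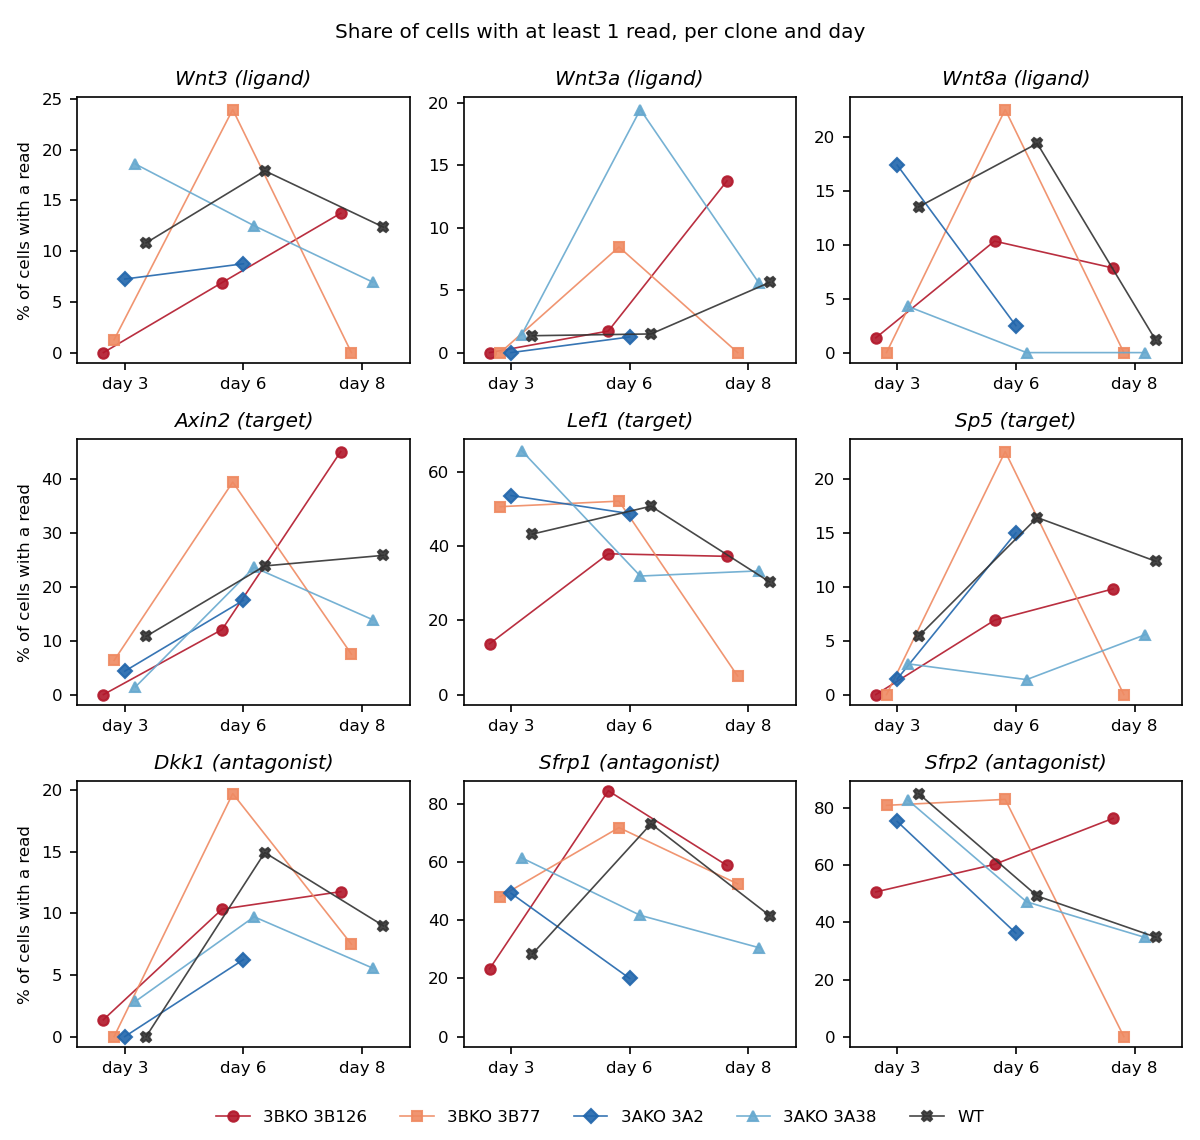
Percent of cells with at least 1 read of each member (y axis, a separate scale per panel) against the day of differentiation (x axis), each line being a clone, without reduction of depth. Axin2 and Dkk1 lie higher at day 6 than at day 3 in 5 of 5 clones, and Sfrp1 at day 6 is read in 84.5% and 71.8% of cells of the 3BKO clones, 20% and 41.7% of the 3AKO clones and 73.1% of WT.

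The third axis of the design set the knockouts against WT. At day 6, edgeR called 0 of 9 members in 3BKO over WT (0% of all genes) and 0 of 9 in 3AKO over WT (0% of all genes). The unadjusted p was below 0.05 for 0 members in each. The DESeq2 Wald test called 0 members, against 63 and 44 of the 35661 genes with a read. Every adjusted p was 1. WT was a single line per day, so the spread behind these tests came from the knockout clones. For the ligands, the log2 difference of 3BKO over WT was -1.03 ± 2.35 (SE) for Wnt3, -0.41 ± 2.69 for Wnt3a and -0.0092 ± 2.67 for Wnt8a, and that of 3AKO over WT was -0.25 ± 2.397, 0.88 ± 2.82 and -2.45 ± 2.58. For the readout genes, 3BKO over WT gave 0.101 ± 2.13 for Axin2, -0.701 ± 1.35 for Lef1 and -2.05 ± 2.497 for Sp5, and 3AKO over WT gave -0.73 ± 2.08, -0.54 ± 1.35 and -3.31 ± 2.54. For the antagonists, 3BKO over WT gave 0.21 ± 2.17 for Dkk1, 0.099 ± 1.14 for Sfrp1 and 0.18 ± 2.901 for Sfrp2, and 3AKO over WT gave -0.068 ± 2.15, -1.17 ± 1.100 and 1.61 ± 3.11. With errors of 1.10 to 3.11 on the log2 scale, a difference of several fold was not detectable. Both comparisons share the WT library.

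At days 3 and 8 edgeR called 0 of 9 members in each of these 4 contrasts (0% of all genes), and DESeq2 called 0 members too. An unadjusted p below 0.05 was seen for 1 member in 3BKO over WT at day 3, 1 in 3AKO over WT at day 8 (1 library against 1) and 0 in the other contrasts, against 753 (3.13%) and 1364 (5.66%) of all genes in the first pair. The lowest adjusted p of a member was 0.685 for 3AKO over WT at day 3, 0.816 for 3AKO over WT at day 8 (Lef1) and 1 for 3BKO over WT at both days. Without the highest cell of each library, the plain level of Lef1 at day 8 was 41.2 CPM in 3A38 and 7.94 CPM in WT. The interaction test of the change between days 3 and 6, 3BKO minus WT, called 0 members (0% of all genes, every adjusted p = 1, 0 members with an unadjusted p below 0.05 and 0 by DESeq2). For Wnt8a, whose direction differed between 3BKO and WT, the interaction was 6.73 ± 4.33 (SE) on the log2 scale.

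**Figure D4:**
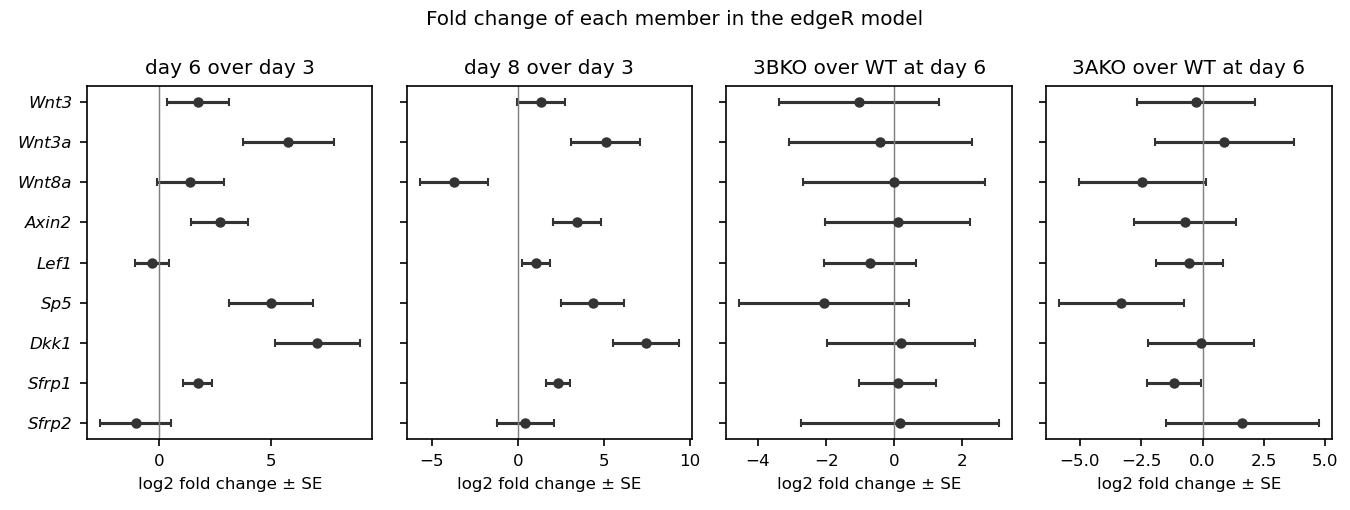
Fitted log2 fold change (x axis, a separate scale per panel, bars: SE) of each member (y axis) in the edgeR model for 4 contrasts. Dkk1 stands at 7.06 ± 1.87 for day 6 over day 3, a size that depends on the prior count of the model, and in 3BKO over WT at day 6 the bars of all 9 members cross 0.

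Counting cells rather than reads, Sfrp1 was the member whose share at day 6 set both 3BKO clones above the rest, at 1 of 3 settings. With each cell reduced to 50000 reads, it was read at day 6 in 78.6 and 62.9% of cells of 3BKO clones 3B126 and 3B77, 14.2 and 33.8% of 3AKO clones 3A2 and 3A38 and 57.2% of WT. Both 3BKO clones lay above the other 3 (means 70.7% and 35.1%, exact two-sided permutation p = 0.2, the smallest that 2 clones against 3 allow, 9 members tested), and the other 8 members had p between 0.4 and 1. The separation was lost without reduction of depth, where 3B77 had 71.8% and WT 73.1%, and when at least 5 reads were asked after it, where 3B77 had 28.3% and WT 32.97% (exact permutation p = 0.4 in both). The summed level of Sfrp1 did not separate the clones, and 0 of 9 members had both 3BKO clones above the other 3 clones in summed level at day 6, where 7.06% of all genes did. At day 3 the thinned shares of Sfrp1 were 18.6 and 31.6% in 3BKO, 32.8 and 47.1% in 3AKO and 18.5% in WT, with overlap. Within batch 2 at day 6, 3B126 had 78.6% and WT 57.2%.

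To place the members among cell types, the cells were clustered without any gene of the Wnt lists, and clusters were named from marker genes. Wnt3a was the member most tied to 1 cluster: 31 of its 41 positive cells lay in the neural progenitor-like cluster, where it was read in 31 of 141 cells (21.99%, exact 95% interval 15.4 to 29.7%). This cluster carried 7 of 8 neural progenitor markers and was led by Fabp7 and Pou3f3. Its share there was 5 of 33 cells in 3B126, 4 of 25 in 3B77, 15 of 41 in 3A38 and 6 of 40 in WT, and the cluster held 2 cells of 3A2. Of 23 Wnt3a cells at day 6, 17 also had a read of Pax3, a factor of the dorsal neural tube, where 7.84 would follow from the shares within clones, and at day 8 the number was 12 of 16 (4.92 from the shares). Axin2 was also read most often in this cluster, in 59 of 141 cells (41.8%, exact 95% interval 33.6 to 50.4%), whereas Wnt3 was read about as often here, in 28 of 141 cells (19.9%, exact 95% interval 13.6 to 27.4%), as in the epiblast-like cluster 7, in 13 of 68 cells. The other epiblast-like clusters had Wnt3 reads in 20 of 129 cells (cluster 2) and 0 of 64 cells (cluster 8). With the doubted pair removed, the neural progenitor-like cluster had 26 of 121 cells with Wnt3a and 50 of 121 with Axin2. The mean level per cell of Sfrp2 in the neural progenitor-like cluster was 257 CPM, against 30.01 CPM in the epiblast-like cluster 2 and 6.84 CPM in the mesenchyme-like cluster.

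The other antagonists lay elsewhere. Dkk1 was read in 23 of 103 cells (22.3%, exact 95% interval 14.7 to 31.6%) of the endothelium-like cluster, at a mean of 65.3 CPM per cell, and in 11 of 75 cells (14.7%, exact 95% interval 7.56 to 24.7%) of the mesenchyme-like cluster. By clone, the mean was 6.53 CPM in 3B77, 115 CPM in 3A2, 5.802 CPM in 3A38 and 91.97 CPM in WT cells of the endothelium-like cluster. The cluster also held 7 cells of 3B126, all of day 8, which were not summarised apart, so 3B77 does not stand for 3BKO here. In 3A38 Dkk1 was read in 2 of 23 cells of the endothelium-like cluster and 7 of 30 of the mesenchyme-like cluster. In 3B77 the numbers were 2 of 16 of the endothelium-like and 5 of 25 of the neural progenitor-like cluster. With the doubted pair removed, 15 of 72 endothelium-like cells had a read. The endothelium-like cluster carried 5 of 6 endothelial markers but also 3 markers of the primitive streak and nascent mesoderm, so the Dkk1 cells in it are not assigned further. At day 6, 17 of 42 Dkk1 cells had Kdr, a receptor of vascular and early mesodermal progenitors (7.17 from the shares), and 16 had Pdgfra, a receptor of mesoderm (7.09 from the shares). At day 8, 7 of 21 Dkk1 cells had the streak gene Mixl1, where 1.18 would follow. Sfrp1 reached 472 CPM per cell in the mesenchyme-like cluster, where it was read in 61 of 75 cells (81.3%, exact 95% interval 70.7 to 89.4%), by clone 19 of 22 in 3B77, 25 of 30 in 3A38 and 17 of 23 in WT. All 22 of these 3B77 cells came from the library labelled day 8, and 42 of 53 cells of the cluster had a read with the doubted pair removed. Sfrp1 was read about as often in cluster 6, in 58 of 71 cells (81.7%, exact 95% interval 70.7 to 89.9%), but at a lower mean of 120 CPM per cell. Cluster 6 was the deepest cluster, with a median of 507100 reads per cell, against 203100 in the mesenchyme-like cluster. Cluster 6 could not be named from the markers, was led by zinc finger genes and Frzb, and held 40 of 58 cells of 3B126 at day 6.

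Lef1 was read in cells of every cluster, most often in 2 of the epiblast-like clusters, in 41 of 68 cells (60.3%, exact 95% interval 47.7 to 71.97%) of cluster 7 and 76 of 129 cells (58.9%, exact 95% interval 49.9 to 67.5%) of cluster 2, and least in the blood-like cluster (1 of 22 cells). In the epiblast-like cluster 8 it was read in 32 of 64 cells (50%), and in cluster 6 in 34 of 71. Clusters 7 and 8 each carried only 3 of 8 epiblast markers, and cluster 2 carried 5. Wnt8a was read in 10 of 68 cells of the epiblast-like cluster 7, 20 of 141 of the neural progenitor-like cluster, 9 of 71 of cluster 6 and 14 of 129 of the epiblast-like cluster 2. Sp5 was read in at most 11 of 73 cells (15.1%, exact 95% interval 7.77 to 25.4%), in cluster 5, which could not be named, but with the doubted pair removed in 4 of 49 there and 9 of 71 of cluster 6. In the 22 blood-like cells, Wnt3, Wnt3a, Wnt8a, Sp5, Dkk1 and Sfrp2 were not read at all, which at this number allows up to 13.6% of cells with a read (3 cells of 22, counting error only). Median depths of the clusters ran between 175700 and 507100 reads per cell.

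**Figure D5:**
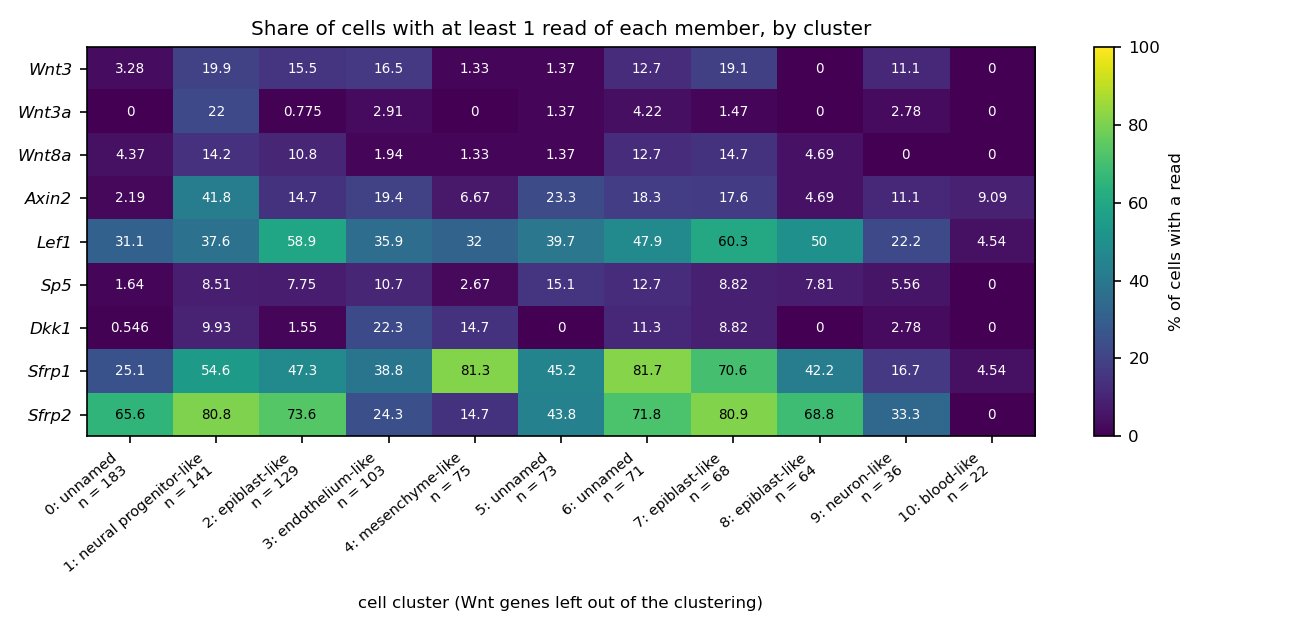
Percent of cells with at least 1 read (colour and printed value) of each member (rows) in each cell cluster (columns, with the number of cells). Wnt3a reaches 22.0% in the neural progenitor-like cluster and at most 4.23% elsewhere, Dkk1 pooled over clones reaches 22.3% in the endothelium-like cluster, and Sfrp1 exceeds 80% in the mesenchyme-like cluster and in cluster 6.

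Among 74 further genes of the pathway, 70 passed the filter. Of these, 1 passed the test between days 6 and 3, where 0.0374% of all genes did. Between days 8 and 3, 4 passed, where 0.822% of all genes did, and all were higher at the later day. Rspo3 encodes an R-spondin, a secreted protein that amplifies Wnt signals by sparing the receptors from removal. It had 0 and 0 CPM in 3B126 and 3B77 (3BKO), 0.541 and 0.1097 CPM in 3A2 and 3A38 (3AKO) and 0.499 CPM in WT cells at day 3. At day 6 it had 22.7 and 7.48 CPM in 3B126 and 3B77 (3BKO), 54.8 and 20.6 CPM in 3A2 and 3A38 (3AKO) and 35.3 CPM in WT cells. The day 8 values were 48.1 and 17.2 CPM in 3B126 and 3B77 (3BKO), 4.42 CPM in 3A38 (3AKO) and 18.5 CPM in WT cells. Every later library lay above every library of day 3, as for 1.48% of all genes tested at day 6 and 3.08% at day 8. Both 3BKO clones were at 0 at day 3, so the fitted sizes of Rspo3 depend on the prior count of the model. Rspo3 rose at day 6 (log2 fold change 8.21 ± 1.12 (SE), adjusted p = 0.0153) and at day 8 (log2 fold change 7.24 ± 1.08 (SE), adjusted p = 0.0135). The day 6 call was lost without clone 3B126 (adjusted p = 0.0601) and by limma-trend on the mean of cell CPM (adjusted p = 0.0538).

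Wls, the carrier that brings Wnt proteins to the cell surface, had 7.304 and 8.55 CPM in 3B126 and 3B77 (3BKO), 4.46 and 43.7 CPM in 3A2 and 3A38 (3AKO) and 7.23 CPM in WT cells at day 3. At day 6 it had 144 and 203 CPM in 3B126 and 3B77 (3BKO), 42.5 and 160.0 CPM in 3A2 and 3A38 (3AKO) and 206 CPM in WT cells. The day 8 values were 144 and 419 CPM in 3B126 and 3B77 (3BKO), 176 CPM in 3A38 (3AKO) and 251 CPM in WT cells. It rose at day 8 (log2 fold change 4.38 ± 0.78 (SE), adjusted p = 0.0212), although the call was lost without 3B126 (adjusted p = 0.0623) or 3B77 (adjusted p = 0.0687). The day 6 difference did not pass (log2 fold change 3.79 ± 0.74 (SE), adjusted p = 0.09699).

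Wnt5a, a ligand known mainly for signalling without beta-catenin, had 14.3 and 4.31 CPM in 3B126 and 3B77 (3BKO), 9.36 CPM in 3A38 (3AKO) and 8.602 CPM in WT cells at day 8, against at most 0.474 CPM in any clone at day 3 (log2 fold change 6.76 ± 1.46 (SE), adjusted p = 0.0446). Its call was lost without 3B126 (adjusted p = 0.0549) or WT (adjusted p = 0.0649). Frzb, another secreted frizzled-related antagonist, had 4.69 and 26.01 CPM in 3B126 and 3B77 (3BKO), 0.497 CPM in 3A38 (3AKO) and 13.5 CPM in WT cells at day 8, against at most 0.4397 CPM in any clone at day 3 (log2 fold change 6.93 ± 1.38 (SE), adjusted p = 0.03796). Its call was lost without 3B126 (adjusted p = 0.0562), without WT (adjusted p = 0.0736) or with the highest cell of each library removed (adjusted p = 1).

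All 4 calls of day 8 held with the doubted pair removed (adjusted p between 0.00771 and 0.0262). The other 66 genes tested passed in neither contrast, and means below are over 5 clones at days 3 and 6 and 4 at day 8, with the SD. Of 15 other ligands tested, 0 passed at day 6 and 1 at day 8 (Wnt5a), and Wnt2 had a mean of 0.01097 ± 0.0245 CPM at day 3, 1.83 ± 1.63 CPM at day 6 and 5.01 ± 6.58 CPM at day 8. Of 12 receptors and co-receptors 0 passed in either contrast, with Fzd3 at 32.7 ± 19.4, 183 ± 89.7 and 235 ± 192 CPM and Fzd7 at 109.8 ± 62.5, 102 ± 48.3 and 81.9 ± 16.1 CPM on days 3, 6 and 8. Of 9 signal transducers 0 passed, and the beta-catenin gene Ctnnb1 stood at 444 ± 181, 786 ± 534 and 562 ± 229 CPM. Of the 3 other Tcf factors 0 passed, and Tcf7l1, which represses targets in the absence of a signal, had 38.6 ± 20.1, 9.502 ± 3.32 and 11.98 ± 5.105 CPM. Of 12 further targets and feedback genes 0 passed, with Ccnd1, the gene of cyclin D1, at 130.3 ± 109, 40.8 ± 9.29 and 15.6 ± 12.5 CPM. Of the 7 R-spondins and their receptors 1 passed at each day (Rspo3), and the receptor Lgr4 had 527 ± 276, 199 ± 146 and 198 ± 204 CPM. Of the 10 other antagonists tested 0 passed at day 6 and 1 at day 8 (Frzb). Against WT, edgeR called 0 of the 70 in each of 6 contrasts.

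Across the 14 libraries, the genes whose level followed a member most closely were sought among 9470 genes with a mean of at least 5 CPM, by Pearson's r of log2(CPM + 5), as a description without a test. The 14 values come from 5 clones and share depth and cell composition. For Wnt3a they were Aldh1a2 (r = 0.94), Ccdc107 (r = 0.92) and Tmem242 (r = 0.86), of which Aldh1a2 makes retinoic acid. Sp5 was followed most closely by Cyp26a1 (r = 0.96), Cfc1 (r = 0.87) and Prrg1 (r = 0.82), where Cyp26a1 degrades retinoic acid and Cfc1 is a Nodal co-receptor. The nearest genes to Dkk1 were Mgarp (r = 0.86), Ankrd37 (r = 0.83) and Cyp26a1 (r = 0.83), and those to Axin2 were Stc1 (r = 0.87), Dll3 (r = 0.85) and Ildr2 (r = 0.83), where Dll3 is a Notch ligand of the presomitic mesoderm. Wnt3 was nearest to Wdr83 (r = 0.87), Pdrg1 (r = 0.82) and Coa3 (r = 0.81) and Wnt8a to Atxn2 (r = 0.85), Ubtd2 (r = 0.84) and Itgb5 (r = 0.81). Lef1 gave Snap25 (r = 0.94), Csrnp2 (r = 0.94) and Nap1l5 (r = 0.92), values that include the single high cell of clone 3A38 at day 8. For Sfrp1 they were Mecom (r = 0.88), Spag9 (r = 0.86) and Eid1 (r = 0.86) and for Sfrp2 Ndufs7 (r = 0.88), Rnf165 (r = 0.87) and Rfx1 (r = 0.86). Between members, the closest pair was Sp5 and Dkk1 (r = 0.76), followed by Axin2 and Dkk1 (r = 0.68).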

How the data were processed

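The deposited table held raw counts, that is whole-number reads per gene in each of 965 cells, without molecular identifiers, so intervals cover counting error only. Per the labels and the study's methods, reads were trimmed with Trim Galore 0.5.0 after FastQC 0.11.2, aligned to GRCm38 with STAR 2.7.1a and counted by the authors with featureCounts 1.6.1, leaving out multi-mapped reads. A cell needed 50000 assigned reads or more to be kept by the authors. No source used here gives the strand setting. CPM were computed from these counts.

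Counts were added per clone and day (14 sums) and fitted with edgeR 4.0.16 (R 4.3.3; TMM, filterByExpr, quasi-likelihood test) as genotype-by-day means, with Benjamini-Hochberg adjustment over 24083 genes and a threshold of 0.05. WT had 1 sum per day and its spread was assumed to be that of the knockout clones. The SE of a log2 fold change was its absolute size divided by the square root of the test's F statistic. Where the fold change depends on the prior count, this SE does too. Shares of cells were compared after reducing each cell to 50000 reads, by exact permutation tests over clones (SciPy 1.17.1), whose p-values are given without adjustment. Cells were clustered with Seurat 5.3.0 (2000 variable genes, integration over batch, 8 principal components, resolution 0.8) after leaving out the Wnt genes. Doublets were not called, cells having been sorted singly.

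The members, the further pathway genes and the markers were chosen with earlier results of these data known. Members were given in every clone and day, and further pathway genes where called or, for up to 3 genes a role, among the most abundant of it. The same clone was sampled on each day, and deviations from the genotype means correlated between days 3 and 6 (r = 0.12 in 3AKO and 0.10 in 3BKO). Alternatives were DESeq2 1.42.0 (size factors or its Wald test), no filter, mean cell CPM with limma 3.58.1 on a log2(CPM + 1) scale, totals without mitochondrial genes, each gene without its highest cell, a clone block, leaving out each clone and leaving out the doubted library and plate.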

Additional observations from a re-analysis of the deposited data

Results flagged for a closer look

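Of 27 groups of 4 or 5 libraries (each member at each day), 6 had a highest or lowest library that stood apart by Dixon's criterion. The criterion marks about 1 in 20 groups of normally distributed values. These were unlogged CPM, often near or at 0, so the 6 groups cannot be set against that rate. Wnt3a at day 6 was 2.73 CPM in clone 3A38, and Sfrp2 at day 6 was 91.1 CPM in the same clone, each above the other 4 libraries. Clone 3B126 at day 8 stood above the rest for Wnt8a (1.35 CPM) and Axin2 (15.1 CPM). Lef1 at day 8 was 206 CPM in 3A38, of which 1 cell held 76.4% of the reads, and Sp5 at day 3 was 0.499 CPM in WT.

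The level of Wnt8a moved between days 3 and 6 in opposite directions by genotype. It was higher at day 6 in both 3BKO clones (by 2.00 CPM in 3B126), and lower in both 3AKO clones and in WT. For WT, without the highest cell of each library the plain level was 2.74 CPM at day 6 and 2.88 CPM at day 3, and the share of cells with a read was higher at day 6 (19.4%) than at day 3 (13.5%). The difference between 3BKO and 3AKO was not tested, and that between 3BKO and WT gave an interaction of 6.73 ± 4.33 (SE) on the log2 scale (edgeR, adjusted p = 1).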

How the results depend on the processing

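Of 432 member results under alternatives of the edgeR fit, 17 came to pass the threshold, 27 turned in sign and the rest kept both. No alternative called a member in a comparison of genotypes. For day 6 over day 3 the number of members called was 3 by the DESeq2 Wald test, 1 without the filter and 0 to 1 with a clone left out, and for day 8 over day 3 it was 5 by DESeq2, 2 without the filter, 1 with each gene summed without its highest cell, 1 by limma-trend on mean cell CPM and 0 to 1 with a clone left out. The cause of these differences was not tested. With the clone as a replicate block, for which the pairing rests on the clone being the same cell line, 0 members were called in both contrasts, and genes called were 67 at day 6 (9 without the block) and 394 at day 8 (198 without). Over all alternatives the genes called ran between 1 and 1500 at day 6 and between 108 and 2876 at day 8, the highest by the DESeq2 Wald test. With a clone left out they ran between 1 and 556 at day 6 and between 108 and 1051 at day 8. The counts of members called are therefore not read as a result about the members. Where edgeR called 0 genes, the highest count was 224, 73 and 129 for 3BKO over WT at days 3, 6 and 8, 747, 49 and 593 for 3AKO over WT at days 3, 6 and 8, and 86 for the interaction.

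The sign of uncalled values turned in 27 of the 432 results. With a clone left out, log2 differences ran between -0.56 and 2.78 (Wnt8a, day 6 over day 3), -1.59 and 3.37 (Wnt3, day 8 over day 3), -0.54 and 2.18 (Lef1, day 8 over day 3) and -3.80 and 0.89 (Sfrp2, day 8 over day 3). In 3BKO over WT at day 6 they ran between -0.72 and 0.48 (Wnt8a), -1.16 and 0.79 (Axin2), -1.13 and 0.73 (Sfrp1) and -0.23 and 0.50 (Sfrp2), and in 3AKO over WT at day 6 between -1.47 and 0.41 (Wnt3), -1.21 and 1.72 (Wnt3a), -2.59 and 0.82 (Dkk1) and -1.31 and 2.53 (Sfrp2). With the doubted library and plate removed, day 8 over day 3 was -1.40 for Wnt3 and -3.73 for Sfrp2, and Sfrp2 was -0.28 by limma-trend and -0.30 with the replicate block. In 3BKO over WT at day 6, Wnt8a was 0.031 without the filter and 0.026 without mitochondrial genes, Wnt3a 5.28 and Axin2 -0.038 without each gene's highest cell, and limma-trend gave -0.70 for Axin2, -0.41 for Dkk1, -0.020 for Sfrp1 and -0.26 for Sfrp2. Dkk1 in 3AKO over WT was 0.15 without its highest cell.

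For shares of cells, 109 results kept their direction and 17 turned. The difference between 3BKO and the other clones turned with at least 5 reads for Lef1 (0.232 points), Sp5 (-0.893) and Sfrp2 (-6.89), and without reduction of depth for Wnt3 (2.37) and Lef1 (1.21). With a clone left out it ran between -6.64 and 6.36 points for Wnt3, -3.44 and 1.94 for Wnt3a, -4.14 and 7.86 for Axin2, -14.5 and 7.30 for Lef1 and -2.89 and 8.78 for Sp5. For day 6 over day 3, Lef1 turned with at least 5 reads (-0.838 points) and without reduction of depth (-1.09), and with a clone left out it ran between -1.72 and 6.46 points for Lef1 and -0.730 and 5.83 for Wnt8a. The ligand share at day 3, an alternative added after the data were seen, differed by -18.2 to -20.3 points with a clone left out. In the cluster with the highest share, Wnt3a was read in 31.8% of cells both with the Wnt genes used to cluster and without integration, and Sfrp2 in 90.6% with the Wnt genes used. Depth limits the members with libraries at 0, which were the ligands, Sp5, Dkk1, Axin2 and Sfrp2, since such libraries allow up to 0.258 CPM by counting error of reads alone. The sampling of few cells adds to this.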
